A study of Mus musculus with 39 samples.

Results

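Cxcl12 and Cxcl14 are homeostatic chemokines, ligands that many tissues make without inflammation, and Cxcr4 and Ackr3 encode the main receptors of CXCL12. These 4 genes were taken by symbol from the 39179 genes of the count table, of which 15070 were expressed highly enough to be tested, and all 4 were among those. They were chosen by measured values of these same libraries, since in earlier results Cxcl12 had followed fibroblast genes, so that relation is given below as a description. The differences between groups come from the test across all genes, and they lend no independent support to what led to the choice.

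Bulk RNA came from 39 Braf-mutated melanoma tumours grown in C57BL/6 mice from cultured tumour cells; the sources used here give neither the name of the line, nor whether it is a clone, nor the age of the animals. Dosing began 7 days after the cells were injected. Combination tumours received anti-PD-1 antibody, which blocks an inhibitory T cell receptor, at 200 µg per dose together with EPAT, drugs that block EP2 and EP4, a pair of receptors for prostaglandin E2, given at 30 mpk. EPAT tumours received the antagonists, anti-PD-1 tumours the antibody, and vehicle tumours a mixture of DMSO, PEG400 and water. Each treatment lasted 5 or 2 days, and every group held 5 libraries, apart from the day 2 anti-PD-1 group, which held 4. Nothing in the labels ties each library to an animal of its own, so a p-value here reflects only how far these samples spread, which may be technical.

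CXCL12 binds CXCR4, a signalling receptor that draws leukocytes and tumour cells up its gradient, and ACKR3, an atypical receptor that takes up and degrades CXCL12 and so shapes that gradient. In tumours CXCL12 is known as a product of fibroblasts, pericytes and endothelial cells, and CXCR4 as a receptor of lymphocytes, neutrophils and other leukocytes. CXCL14 is made by epithelium, fibroblasts and muscle, and a binding to CXCR4 has been described for it, while its signalling receptor is less settled. Prostaglandin E2 acts through EP2 and EP4 to raise cyclic AMP, and in human ovarian cancer it is known to raise CXCL12 and CXCR4.

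The promoters of the 4 genes are shown because hypoxia genes and the cyclic AMP route, both taken up here, act through known DNA words that can be looked for in them. Each runs from 250 bases before to 50 after the RefSeq start of the gene, 5′ to 3′ on the gene's strand, in GRCm38.p6. Capitals mark the cores of the hypoxia response element, ACGTG or GCGTG, on either strand; the 2 words do not overlap in any of the 4 promoters.
Cxcl12 promoter, chr6:117168285-117168584, plus strand: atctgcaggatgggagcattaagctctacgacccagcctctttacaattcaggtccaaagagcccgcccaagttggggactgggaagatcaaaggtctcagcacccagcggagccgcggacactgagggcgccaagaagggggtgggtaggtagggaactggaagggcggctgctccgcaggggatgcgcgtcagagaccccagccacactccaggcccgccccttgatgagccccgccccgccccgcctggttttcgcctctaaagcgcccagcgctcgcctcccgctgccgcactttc
Cxcl14 promoter, chr13:56296502-56296801, minus strand: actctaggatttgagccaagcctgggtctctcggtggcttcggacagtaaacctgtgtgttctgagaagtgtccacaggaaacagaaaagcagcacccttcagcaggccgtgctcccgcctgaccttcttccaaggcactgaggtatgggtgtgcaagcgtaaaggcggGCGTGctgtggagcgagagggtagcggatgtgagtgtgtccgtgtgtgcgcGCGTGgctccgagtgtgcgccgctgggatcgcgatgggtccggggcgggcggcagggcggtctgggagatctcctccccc
Cxcr4 promoter, chr1:128592250-128592549, minus strand: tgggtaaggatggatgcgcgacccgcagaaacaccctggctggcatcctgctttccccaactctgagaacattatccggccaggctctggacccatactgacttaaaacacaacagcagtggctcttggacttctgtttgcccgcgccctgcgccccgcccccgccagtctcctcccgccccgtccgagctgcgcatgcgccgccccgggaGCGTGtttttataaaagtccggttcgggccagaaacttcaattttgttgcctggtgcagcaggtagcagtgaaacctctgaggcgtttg
Ackr3 promoter, chr1:90203730-90204029, plus strand: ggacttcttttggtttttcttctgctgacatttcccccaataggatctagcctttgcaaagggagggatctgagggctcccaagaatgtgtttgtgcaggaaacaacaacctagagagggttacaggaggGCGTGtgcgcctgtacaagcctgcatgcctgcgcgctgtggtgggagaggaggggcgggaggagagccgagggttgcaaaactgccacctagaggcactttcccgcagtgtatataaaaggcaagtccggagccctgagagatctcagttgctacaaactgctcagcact

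Cxcl14 held GCGTG at 81 and 30 bases before its start, Cxcr4 at 39 and Ackr3 at 120, and none of the 4 windows held ACGTG. The word GCGTG stood in 32.4% and either word in 43.8% of the 32851 mouse promoters of the same length. The core of the cyclic AMP response element, TGACG, occurred in the Cxcl12 window, 61 bases before the start on the opposite strand, and in 20.8% of all promoters. These matches describe letters and not binding. In GRCm38, Cxcl12 (ENSMUSG00000061353) lies at chr6:117168535-117181367 on the plus strand, Cxcl14 (ENSMUSG00000021508) at chr13:56288643-56296551 on the minus strand, Cxcr4 (ENSMUSG00000045382) at chr1:128588199-128592293 on the minus strand and Ackr3 (ENSMUSG00000044337) at chr1:90203980-90216751 on the plus strand. No other annotated gene overlaps any of them.

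The libraries held between 8385741 and 15558113 counts, and 23 of 39 carried transcripts of lung genes while 16 had under 30 such counts. Those with lung transcripts carry the lower of the running numbers that end the titles, with little mixing at the border. The split was uneven: every anti-PD-1 tumour of day 2 had them, but only a minority of the combination, EPAT and anti-PD-1 tumours of day 5. What it stands for, and its part in the fold changes, was not tested. Vehicle day 2 replicate 1 was the richest in B cell genes, and vehicle day 2 replicate 2 and combination day 5 replicate 3 were the richest in keratinocyte genes. Of 7 melanocyte genes 2 could be tested: Mitf, the lineage transcription factor, had a median of 45.4 CPM (counts scaled to the size of the library), whereas Sox10 was at 0 in 11 libraries. Tyrp1, a pigment enzyme, was at 0 in all 39. The extraction notes speak of tumours taken on day 4, which is neither time point, and the groups here follow the time given for each tumour. For 3 libraries that time differs from the one of the rest of their title series: anti-PD-1 day 5 replicate 3 and EPAT day 5 replicate 5 stand in series otherwise of day 2, and EPAT day 2 replicate 5 in one otherwise of day 5. Which is right was not tested, and fitted values without these title mismatches are given beside the main results that use them. Without them, too, none of the 4 genes passed in any comparison between pairs of groups that these libraries enter. Of the differences between effects, only those of Cxcl14 and Cxcr4 were refitted so, and none passed.

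Both ligands stood in the upper part of the CXC and homeostatic chemokines compared here; inflammatory CC ligands were not among them. The kit reads only the 3′ ends of transcripts, so CPM carries no length term. Other differences between genes in how they are counted were not tested, so the order of genes by level is rough. Of these 16 ligands, Cxcl14 was the fourth in median level over the 39 libraries with 82.8 CPM and Cxcl12 the sixth with 80.8 CPM. Cxcl10 lay between them with 82.7 CPM, so these ranks are near-ties. Cxcl9, the T cell attractant induced by interferon-γ, led with 537.5 CPM. Of 14 chemokine receptors, Cxcr4 was the sixth with 20.5 CPM and Ackr3 the seventh with 18.1 CPM, behind genes such as Ccr2, a receptor of monocytes, with 90.2 CPM.

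Cxcl12 varied far more than the others. Its level ran from 23.8 to 652 CPM, a range of 27.5-fold, and its SD on the log2 scale, 1.2, was larger than that of 97.2% of the genes tested. The ranges were 10.9-fold for Cxcl14 (17.9 to 196 CPM), 6.99-fold for Cxcr4 (6.51 to 45.6 CPM) and 6.59-fold for Ackr3 (8.90 to 58.7 CPM). Counts were ample throughout, the lowest in any library being 197 for Cxcl12, 248 for Cxcl14, 79 for Cxcr4 and 86 for Ackr3. The plot of levels by library shows these spreads.

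**Figure D1:**
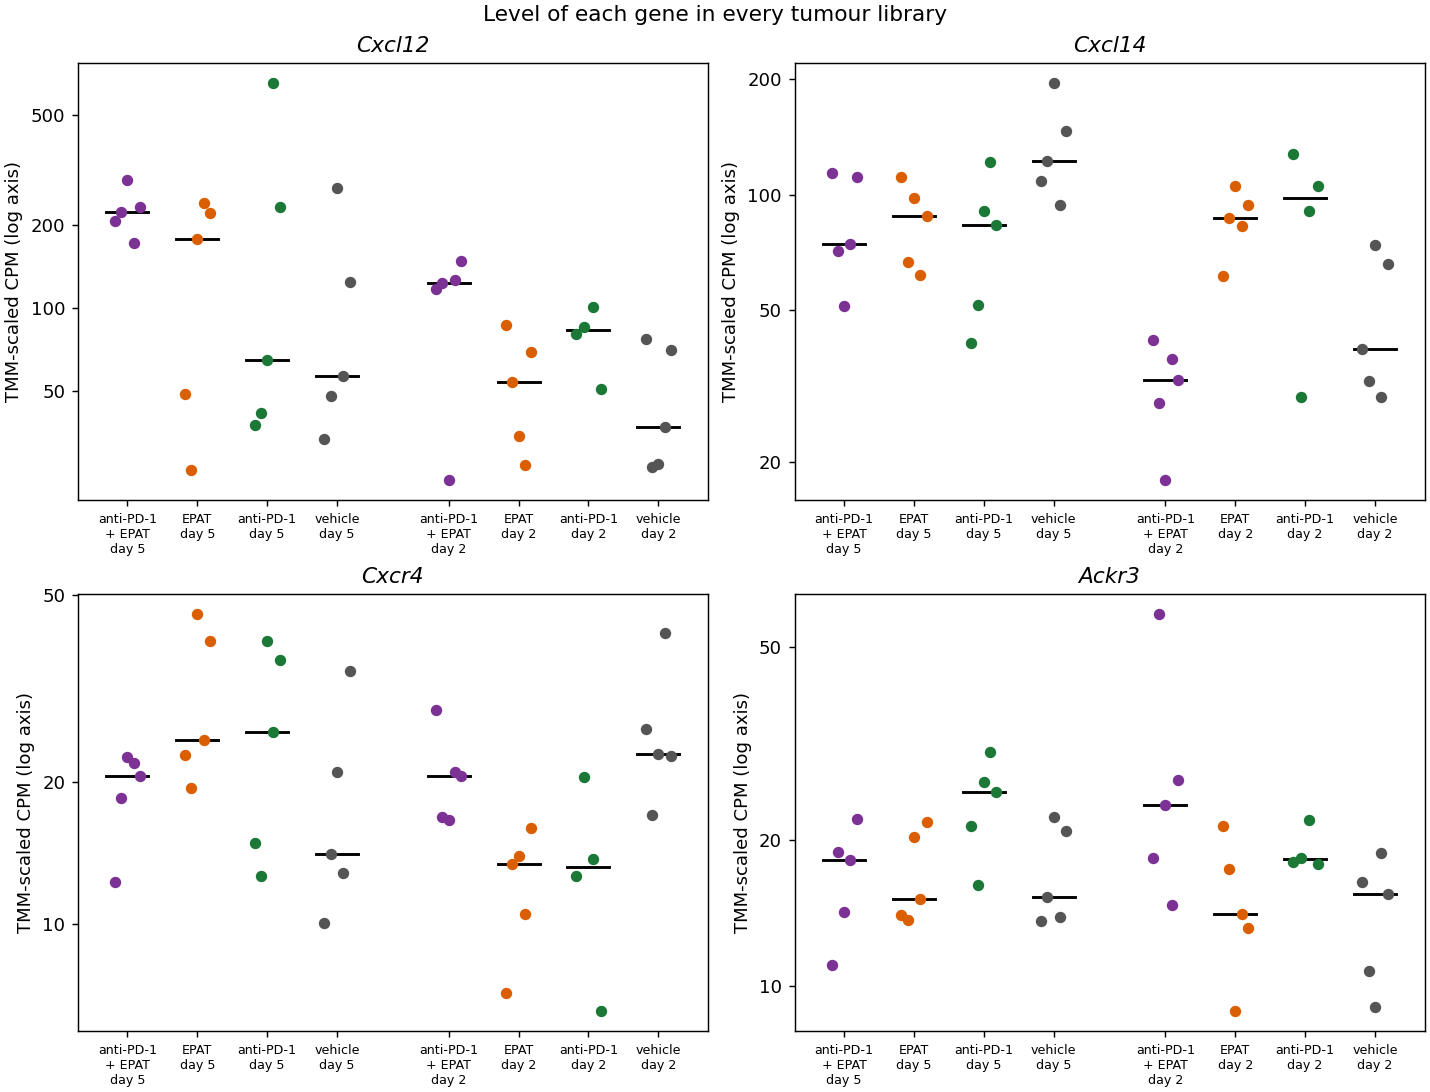
TMM-scaled CPM on log axes for Cxcl12, Cxcl14, Cxcr4 and Ackr3, with 1 point per library, 8 treatment and day groups along each x axis and a bar at each group's median. The 5 combination tumours of day 5 lie between 172 and 290.1 CPM of Cxcl12, while the other day 5 groups each span more than 8-fold.

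None of the 4 genes passed in any of 19 comparisons, 14 between pairs of groups and 5 of differences between effects, at an adjusted p under 0.05 by edgeR's quasi-likelihood test. That is 0 of 76 tests, with 28 at an unadjusted p under 0.05, most of them for Cxcl14 (12) and Cxcr4 (11); between 1.7% (EPAT against vehicle on day 5) and 16.5% (combination against vehicle on day 5) of all genes reached that level in a comparison. Few genes passed at all: 4 (0.0265%) for combination against vehicle on day 5, 3 (0.0199%) for combination against anti-PD-1 on day 5, 2 (0.0133%) for combination on day 5 against day 2, and 0 (0%) in each of the other 16 comparisons. DESeq2 called 4 of the 56 fold changes between pairs of groups and 1 interaction, which are named below, and limma on the deposited log2 values called 0 of them. Differences between effects were refitted only for Cxcl14 and Cxcr4, and not for the combination effect between days. The words higher and lower below therefore report fitted values, and no change is claimed.

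For Cxcl12, the day 5 combination tumours had 206, 223, 290.1, 172 and 232 CPM (224.6 ± 43.1, SD, n = 5). The EPAT tumours of day 5 had 48.6, 26.01, 178, 239 and 221 CPM, and the anti-PD-1 tumours had 37.6, 41.6, 64.7, 652 and 232 CPM. The vehicle tumours of day 5 had 33.6, 48.2, 272, 56.8 and 124.6 CPM. The combination group was thus even, while each other group held libraries of both low and high level and overlapped it.

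On day 2 the combination tumours had 117, 123, 23.8, 127 and 148 CPM of Cxcl12. EPAT tumours had 86.7, 54.0, 34.4, 27.01 and 69.0 CPM, anti-PD-1 tumours 80.8, 85.7, 101 and 51.0 CPM, and vehicle tumours 77.4, 26.6, 27.2, 37.1 and 70.5 CPM. Combination replicate 3 was the lowest of the whole day, and the other 4 combination tumours lay above all others of that day.

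Fitted Cxcl12 was higher in combination than in vehicle tumours by a log2 fold change of 1.07 ± 0.64 (SE) on day 5 (edgeR adjusted p = 0.395) and of 1.17 ± 0.64 on day 2 (adjusted p = 0.553). Against vehicle, EPAT gave 0.42 ± 0.63 on day 5 and 0.18 ± 0.64 on day 2, and anti-PD-1 gave 0.94 ± 0.64 and 0.73 ± 0.67. The anti-PD-1 value of day 5 rested on replicate 4 and was -0.19 without it. The EPAT value of day 5 was 1.11 without vehicle replicate 3 and 0.15 without EPAT replicate 4. Without the 3 title mismatches, day 5 gave 0.22 for EPAT and 1.16 for anti-PD-1, and EPAT on day 2 gave 0.1. With the fibroblast score as a covariate the day 5 values became 0.61 for the combination, -0.18 for EPAT and -0.22 for anti-PD-1, and the day 2 combination value 1.03. Since Cxcl12 was chosen for following fibroblast genes, this fit is given only as a description. Without vehicle replicate 3, the highest of its group, the day 5 combination value was 1.77 (adjusted p between 0.112 and 0.587 over the libraries left out). The combination differed from anti-PD-1 on day 5 by 0.13 ± 0.63 in the count model, which compares means, by 1.03 on the deposited log2 scale and by 1.26 in the count model without anti-PD-1 replicate 4, none of which passed. In the count model that difference was -0.07 without the title mismatches.

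Fitted mean levels of Cxcl12 were higher on day 5 than on day 2 in 4 of 4 treatments, by 1.06 ± 0.64 for the combination, 1.40 ± 0.64 for EPAT, 1.37 ± 0.69 for anti-PD-1 and 1.16 ± 0.64 for vehicle. Adjusted p lay between 0.502 and 0.952. The anti-PD-1 difference was 0.24 without day 5 replicate 4, and the vehicle one 0.46 without day 5 replicate 3. In anti-PD-1 tumours the median was lower on day 5 (64.7 CPM) than on day 2 (83.2 CPM), and 2 of 5 day 5 libraries lay above the day 2 mean. Without the 3 title mismatches the EPAT difference was 1.28 and the anti-PD-1 one 1.57. Only the 2 combination groups did not overlap, 172 to 290.1 CPM on day 5 and 23.8 to 148 CPM on day 2, as was so for 2.09% of all genes. Fibroblast genes stood higher on day 5 as well, 14, 15, 16 and 14 of the 16 for combination, EPAT, anti-PD-1 and vehicle, with median log2 fold changes of 0.61, 0.77, 1.06 and 0.36 and none passing. With the fibroblast score as a covariate the Cxcl12 values became 0.08, 0.15, -0.42 and 0.50 in the same order of treatments. Cxcl12 was chosen for following fibroblast genes, so this fit cannot show what part fibroblasts have in these differences. The endothelial and neutrophil scores were not fitted as covariates. In bulk tissue, more cells of a type and more RNA per cell cannot be told apart.

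Ordered by group mean, Cxcl12 stood highest in combination on day 5 (225 CPM), followed by anti-PD-1 on day 5 (206 CPM), EPAT on day 5 (142.5 CPM), combination on day 2 (108 CPM) and vehicle on day 5 (107 CPM). Anti-PD-1 (79.6 CPM), EPAT (54.2 CPM) and vehicle (47.8 CPM) on day 2 came last. Each step down was smaller than the larger SD of the 2 neighbours, other than that between anti-PD-1 and EPAT on day 2. The day 5 anti-PD-1 group had an SD of 262 CPM and a median of 64.7 CPM. That median lay below those of EPAT on day 5 (178 CPM), combination on day 2 (123 CPM) and anti-PD-1 on day 2 (83.2 CPM).

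Cxcl14 followed another course. The day 5 combination tumours had 114, 71.3, 51.2, 74.2 and 111 CPM, EPAT tumours 111.5, 66.5, 97.8, 61.6 and 88.2 CPM, and anti-PD-1 tumours 40.9, 51.6, 90.5, 122 and 83.4 CPM. Vehicle tumours of that day had 108, 122.5, 196, 94.2 and 147 CPM. Vehicle thus held the highest values, but each treated group reached into its range.

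The day 2 combination tumours were the lowest for Cxcl14, with 41.8, 28.5, 17.9, 37.3 and 32.8 CPM. EPAT tumours had 61.4, 86.9, 105, 82.8 and 93.8 CPM and anti-PD-1 tumours 128, 29.6, 90.4 and 105.5 CPM, against 39.4, 32.6, 73.7, 29.6 and 65.9 CPM in vehicle tumours. Every EPAT tumour lay above every combination tumour, and 3 of 4 anti-PD-1 tumours lay above every vehicle tumour.

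Either single treatment on day 2 went with more Cxcl14 than vehicle, 0.83 ± 0.32 for EPAT (adjusted p = 0.715) and 0.87 ± 0.33 for anti-PD-1 (adjusted p = 0.563), while their combination stood at -0.61 ± 0.32 (adjusted p = 0.529). The combination stood at -1.44 ± 0.32 against EPAT alone (adjusted p = 0.175), with groups that did not overlap, as for 3.27% of all genes. All 15 hypoxia genes were higher in the same comparison (median log2 fold change 1.22, none passing), and their part in it was not tested. Against anti-PD-1 alone it was -1.48 ± 0.34 (adjusted p = 0.925), and leaving out anti-PD-1 replicate 2, the lowest of its group, made this -1.77 with an edgeR adjusted p of 0.0443. Of the 9 fits that each left out 1 library, 1 passed.

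The test of non-additivity on day 2 gave Cxcl14 the smallest p of all 15070 genes. That interaction of EPAT and anti-PD-1 was -2.31 ± 0.46 on the log2 scale, and its edgeR adjusted p, 0.228, did not pass. DESeq2 called it with -2.33 (adjusted p = 0.00303), and edgeR without anti-PD-1 day 2 replicate 2 gave -2.6 (adjusted p = 0.00863). With the muscle and keratinocyte scores as covariates it was -1.76 (adjusted p = 1.00), and without each library in turn it lay between -2.6 and -2.08. Over these left-out libraries the edgeR adjusted p lay between 0.00863 and 0.834, and 1 of 19 fits passed. Without the 3 title mismatches it was -2.3 (adjusted p = 0.522), combination against EPAT on day 2 was -1.41, still without overlap, and EPAT against vehicle was 0.82. On day 5 the interaction was 0.77 ± 0.44 (adjusted p = 1.00; 0.87 without the title mismatches), and there all 3 treatments stood below vehicle: combination -0.66 ± 0.31 (adjusted p = 0.289), EPAT -0.65 ± 0.31 (adjusted p = 1.00; -0.66 without them) and anti-PD-1 -0.78 ± 0.32 (adjusted p = 0.645; -0.85 without them). The day 5 effect minus the day 2 effect was -1.48 ± 0.45 for EPAT (adjusted p = 0.942) and -1.65 ± 0.46 for anti-PD-1 (adjusted p = 1.00), or -1.48 and -1.74 without the title mismatches.

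Cxcl14 differed most between days in combination and vehicle tumours. It was higher on day 5 by 1.41 ± 0.32 in the combination (adjusted p = 0.127) and by 1.47 ± 0.32 in vehicle tumours (adjusted p = 0.226), without overlap in either case, as for 2.09% and 1.35% of all genes. EPAT gave -0.02 ± 0.31 and anti-PD-1 -0.18 ± 0.33. DESeq2 called both differences between days, 1.43 in the combination (adjusted p = 0.00836) and 1.48 in vehicle (adjusted p = 0.00650), and that between combination and EPAT on day 2, -1.44 (adjusted p = 0.0133).

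In vehicle tumours on day 5 against day 2, 12 of 12 muscle genes were higher and 6 of 7 keratinocyte genes lower (median log2 fold changes 2.86 and -4.75), with 0 of them passing. The skeletal muscle score, the mean log2 CPM of 12 genes, ranged from 4.82 to 7.06 in vehicle tumours on day 5 and from -0.74 to 4.59 on day 2, without overlap. The keratinocyte score of 7 genes ranged from -1.27 to -0.44 on day 5 and from -0.98 to 3.43 on day 2, with overlap. With both scores as covariates, vehicle on day 5 against day 2 became 0.86 (adjusted p = 1.00), EPAT against vehicle on day 2 became 0.27 and anti-PD-1 against vehicle 0.33, and combination against vehicle -1.16. Combination against EPAT on day 2 was -1.43 in that fit. Because the muscle score did not overlap between the vehicle days, the fit cannot separate day from muscle content there. The part of muscle or keratinocyte content in the Cxcl14 differences was not tested. Of the 7 keratinocyte genes, Krt5 was at 0 in 28 libraries, Krt15 in 22, Krt14, the basal keratin, in 10, Dsp in 9 and Trp63 in 5. Krt10 and Sfn were at 0 in 0 libraries. Low values of the keratinocyte score thus lie near the floor.

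In order of group mean, Cxcl14 was highest in vehicle on day 5 (134 ± 39.9 CPM) and lowest in vehicle (48.2 ± 20.2 CPM) and combination (31.7 ± 9.14 CPM) on day 2. The other 5 groups lay between 77.7 and 88.2 CPM and did not differ beyond their spread.

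**Figure D2:**
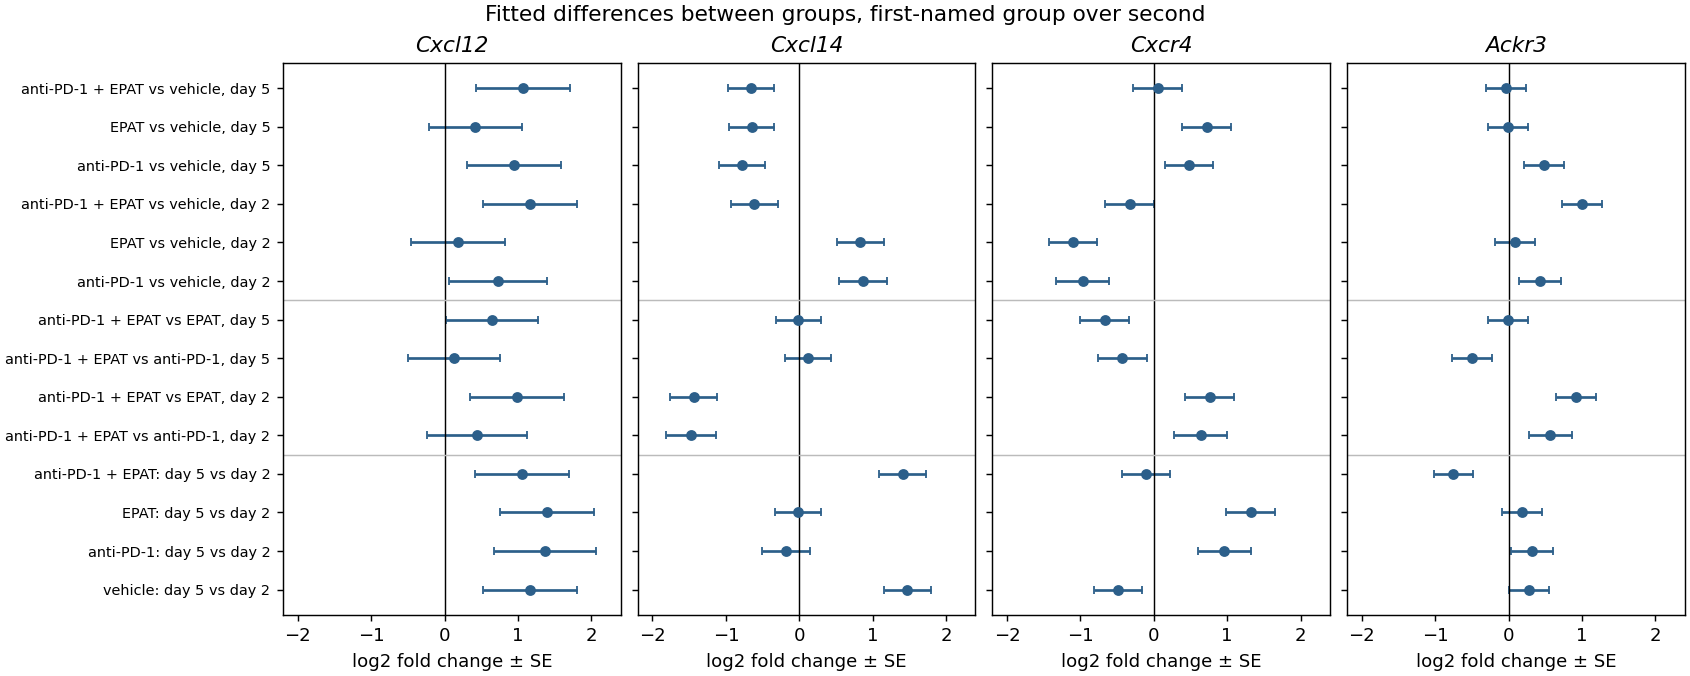
Log2 fold changes ± SE on the x axes for 14 comparisons between pairs of groups, with 1 panel per gene; the group named first is the numerator and grey lines part the comparisons with vehicle, with a single treatment and between days. Cxcl14 shows the values farthest from 0 relative to their SE, such as -1.44 ± 0.32 for the combination against EPAT on day 2, and none passed after adjustment.

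Cxcr4, the signalling receptor, was spread differently over the groups. On day 5 it stood at 12.3, 18.5, 22.6, 21.96 and 20.6 CPM in combination tumours, at 22.8, 19.4, 45.6, 24.6 and 39.8 CPM in EPAT tumours and at 14.8, 12.6, 39.8, 25.5 and 36.3 CPM in anti-PD-1 tumours. In vehicle tumours it stood at 10.04, 14.1, 20.97, 12.8 and 34.3 CPM. EPAT tumours were the highest of that day on average, and all 4 groups overlapped.

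Day 2 values of Cxcr4 were 28.4, 16.9, 16.6, 20.97 and 20.6 CPM in combination tumours. EPAT tumours had 7.12, 13.4, 13.9, 10.5 and 15.9 CPM and anti-PD-1 tumours 12.6, 20.5, 13.7 and 6.51 CPM, against 25.9, 16.98, 22.9, 41.4 and 22.7 CPM in vehicle tumours. No EPAT tumour reached the lowest vehicle or combination tumour, as for 2.4% of all genes against vehicle and 3.27% for the combination against EPAT. But EPAT day 5 replicate 5, a title mismatch, had 39.8 CPM. With it placed on day 2 by its title series, EPAT would overlap both groups.

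Cxcr4 was lower on day 2 with EPAT, -1.10 ± 0.33 against vehicle (adjusted p = 0.677), and with anti-PD-1, -0.97 ± 0.36 (adjusted p = 0.563), but not to that degree with both, -0.33 ± 0.33 (adjusted p = 0.778). The interaction on day 2 was 1.73 ± 0.49 (adjusted p = 0.475), and on day 5 it had the opposite sign, -1.15 ± 0.47 (adjusted p = 1.00). Its sign on day 2 was the reverse of that of Cxcl14. On day 5 EPAT stood at 0.72 ± 0.33 against vehicle (adjusted p = 1.00), anti-PD-1 at 0.48 ± 0.33 and the combination at 0.05 ± 0.33. Without vehicle replicate 5 these were 1.08 for EPAT, 0.84 for anti-PD-1 and 0.41 for the combination, and anti-PD-1 was 0.26 without its replicate 3, a title mismatch. The EPAT effect on day 5 minus that on day 2 was 1.82 ± 0.47 (adjusted p = 0.891). Without the 3 title mismatches the interaction was 1.83 on day 2 and -0.81 on day 5, EPAT against vehicle was 0.61 on day 5 and -1.19 on day 2, combination against EPAT on day 2 was 0.87, and the EPAT effect on day 5 minus that on day 2 was 1.8. Placed by title series, EPAT and anti-PD-1 would each gain a library of 39.8 CPM on day 2, and that fit was not run.

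Within EPAT tumours, Cxcr4 was higher on day 5 (19.4 to 45.6 CPM) than on day 2 (7.12 to 15.9 CPM) by 1.32 ± 0.33 (adjusted p = 0.447), without overlap, as for 2.17% of all genes. Both groups hold a title mismatch, 39.8 CPM on day 5 and 15.9 CPM on day 2. Without the 3 mismatches the difference was 1.32 (adjusted p = 0.768) and the groups still did not overlap, but with these 2 libraries placed by title series they would overlap. Anti-PD-1 tumours differed by 0.96 ± 0.36 (0.73 without the mismatch), combination tumours by -0.11 ± 0.33 and vehicle tumours by -0.49 ± 0.33 between day 5 and day 2. Group means ran from 30.4 ± 11.5 CPM in EPAT on day 5 to 12.2 ± 3.43 CPM in EPAT on day 2, with vehicle on day 2 in the second place (25.98 ± 9.19 CPM), and every step between neighbours was smaller than the larger of their SDs.

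Ackr3, the scavenging receptor, varied least. Its day 5 values were 11.1, 18.9, 14.2, 18.2 and 22.1 CPM in combination tumours, 14.03, 13.7, 20.4, 15.1 and 21.8 CPM in EPAT tumours, 21.4, 16.2, 26.4, 30.5 and 25.1 CPM in anti-PD-1 tumours and 13.6, 15.3, 22.3, 13.9 and 20.9 CPM in vehicle tumours. On day 2 they were 18.4, 58.7, 23.7, 14.7 and 26.7 CPM in combination tumours, 21.5, 17.5, 8.90, 14.1 and 13.2 CPM in EPAT tumours, 18.1, 18.4, 22.1 and 17.9 CPM in anti-PD-1 tumours and 16.4, 10.7, 9.08, 18.8 and 15.5 CPM in vehicle tumours. All pairs of groups overlapped, and combination replicate 2 of day 2 stood far above the rest.

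For Ackr3 the value nearest to passing by edgeR was the combination against vehicle on day 2, 1.00 ± 0.27 (adjusted p = 0.170), which DESeq2 called with 1.02 (adjusted p = 0.0471). Without combination replicate 2 it was 0.58 (edgeR). The combination on day 5 against day 2 was -0.75 ± 0.27 (adjusted p = 0.316) and -0.3 without that library. Anti-PD-1 stood at 0.48 ± 0.27 against vehicle on day 5 (adjusted p = 0.645; 0.43 without its title mismatch) and 0.43 ± 0.29 on day 2. Means lay between 14.1 and 28.4 CPM in the 8 groups, and neighbours in their order did not differ beyond their spread.

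The share of all genes without overlap in the comparisons where none of the 4 did was 1.57%, 0.471% and 0.372% for combination, EPAT and anti-PD-1 against vehicle on day 5, and 3.88% and 3.23% for combination and anti-PD-1 against vehicle on day 2. It was 2.16% for combination against EPAT and 0.491% against anti-PD-1 on day 5, 1.64% against anti-PD-1 on day 2, and 0.956% for anti-PD-1 on day 5 against day 2. In all, 7 of the 56 comparisons, 4 genes in 14 pairs of groups each, showed no overlap.

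Across the 39 libraries, Cxcl12 followed the 16 fibroblast genes, which include collagens and the marker Pdgfra. Its log2 CPM correlated with their mean at a Pearson r of 0.84 (Spearman rho 0.80), higher than 99.2% of the genes tested, whose median r was -0.02. The values of a library share its depth, scaling and tissue content, so these r describe the libraries and carry no test. Taken as deviations from group means r was 0.82, and without the 2 libraries with the highest fibroblast score, anti-PD-1 day 5 replicates 4 and 5, it was 0.80. It was 0.90 on day 5 and 0.49 on day 2, and 0.77 in libraries with and 0.93 in those without lung transcripts.

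All 16 fibroblast genes had r above 0 with Cxcl12, with a median of 0.74. Dcn, which encodes the matrix proteoglycan decorin, reached 0.89, Col1a1 0.79 and Pdgfra 0.78. Mmp2, a protease known to cut CXCL12, had 0.85, and Postn, the matrix protein periostin, had the lowest of the fibroblast genes, 0.41. The other 3 genes were tied less closely to the fibroblast score, with r of 0.30 for Cxcl14, 0.39 for Cxcr4 and 0.45 for Ackr3. On day 2 alone these were -0.06, -0.03 and 0.69.

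**Figure D3:**
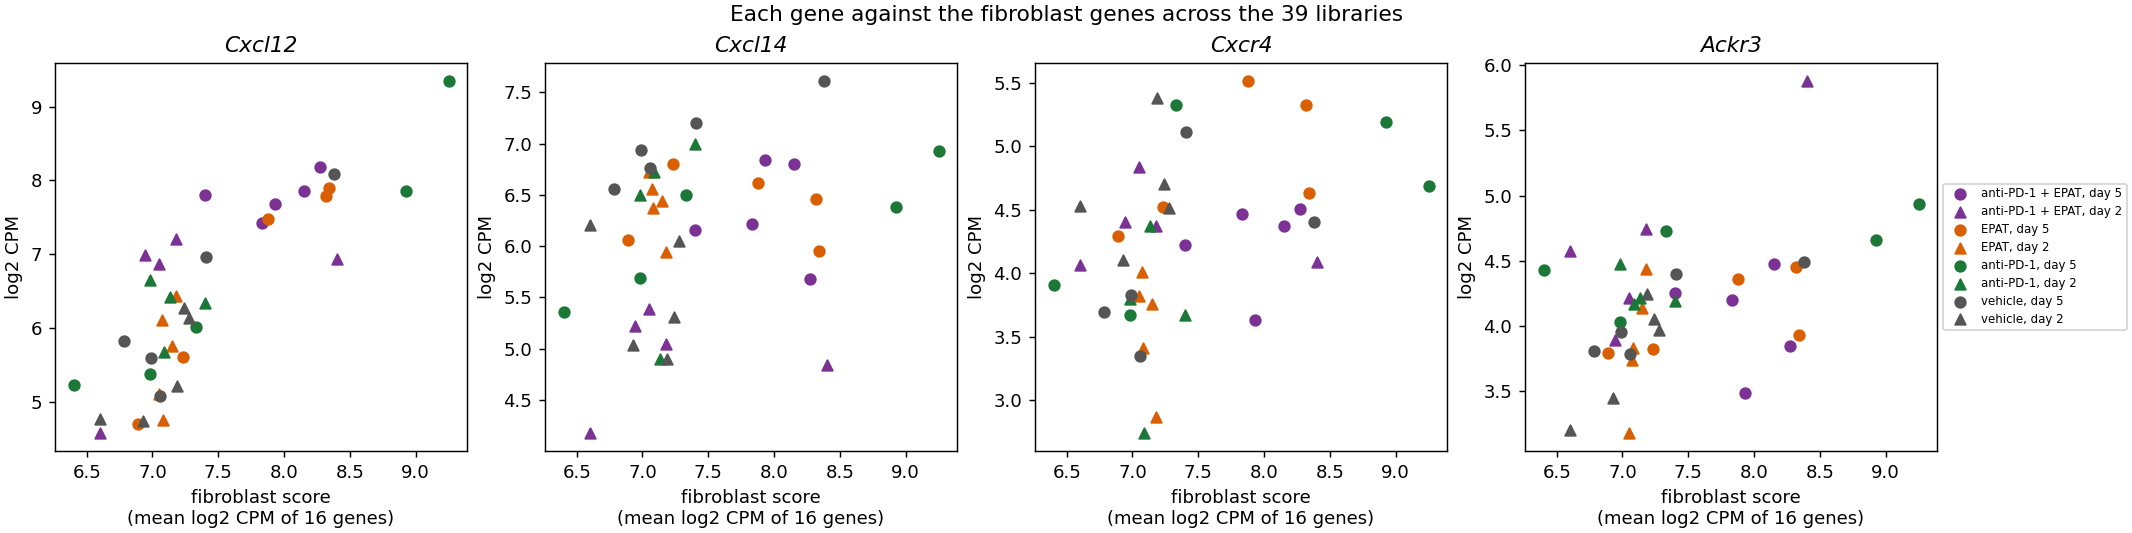
Log2 CPM of each gene (y axes) against the fibroblast score, the mean log2 CPM of 16 fibroblast genes (x axes), with 1 point per library; colour gives the treatment, circles day 5 and triangles day 2. Cxcl12 is higher at higher scores (r = 0.84), while the points of Cxcl14 spread widely (r = 0.30).

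Fibroblast genes were not alone in following Cxcl12. Its r was 0.87 with the endothelial score, led by Kdr, a receptor of vascular growth factor (0.89), and Pecam1 (0.86), and 0.88 with the neutrophil score, led by the calprotectin genes S100a8 (0.91) and S100a9 (0.89) but with -0.12 for Mmp9. Ly6g, a defining neutrophil marker, was at 0 in all 39 libraries. The endothelial r was higher than that of 99.8% of the genes tested and the neutrophil r higher than that of 99.95%. Macrophage (0.80), mural (0.74) and dendritic (0.73) scores followed, and the T cell score had 0.53. On day 2 the endothelial score kept an r of 0.80 and the neutrophil score 0.67. The part of each cell type in the Cxcl12 level was not tested.

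Cxcl14 followed none of these scores closely. Its highest r with any cell type score was 0.41, with skeletal muscle, and with all 15 hypoxia genes it had r below 0 (median -0.23). With the hypoxia score its r was -0.58 on day 2, 0.04 on day 5 and -0.1 as deviations from group means. Cxcr4 reached 0.42 with the endothelial score, 0.23 with the T cell score and 0.29 with the neutrophil score. Ackr3 correlated at 0.63 with the score of 6 genes of adventitial fibroblasts, a perivascular type (0.41 without the 2 libraries farthest from its median, 0.27 on day 5 and 0.82 on day 2). Its r was 0.70 with Pi16, 0.55 with Clec3b, 0.45 with Cd55, 0.15 with Sema3c, -0.19 with Anxa3 and -0.25 with Scara5. Ackr3 correlated at 0.64 with the hypoxia score, higher than 99.6% of the genes tested; all 15 hypoxia genes had r above 0 with it.

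The relation of Ackr3 to hypoxia genes rested in part on few libraries. Its r was 0.35 without the 2 libraries farthest from the median hypoxia score, and it was 0.83 on day 2 and 0.19 on day 5. Combination day 2 replicate 2, with the highest Ackr3, also had the highest hypoxia score of its group, 7.06 against 5.00 to 5.71 in the other 4, and a fibroblast score of 8.4. Its part in the relation was not tested beyond these values. In combination against vehicle tumours on day 2, 15 of 15 hypoxia genes were higher, with a median log2 fold change of 1.02 and 0 passing. Ndrg1, a stress gene, stood at 1.18 ± 0.24 (adjusted p = 0.0563), Hk2, the glycolytic hexokinase, at 1.21 ± 0.28 (adjusted p = 0.0858) and Adm, the peptide adrenomedullin that ACKR3 also binds, at 1.81 ± 0.51 (adjusted p = 0.174).

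**Figure D4:**
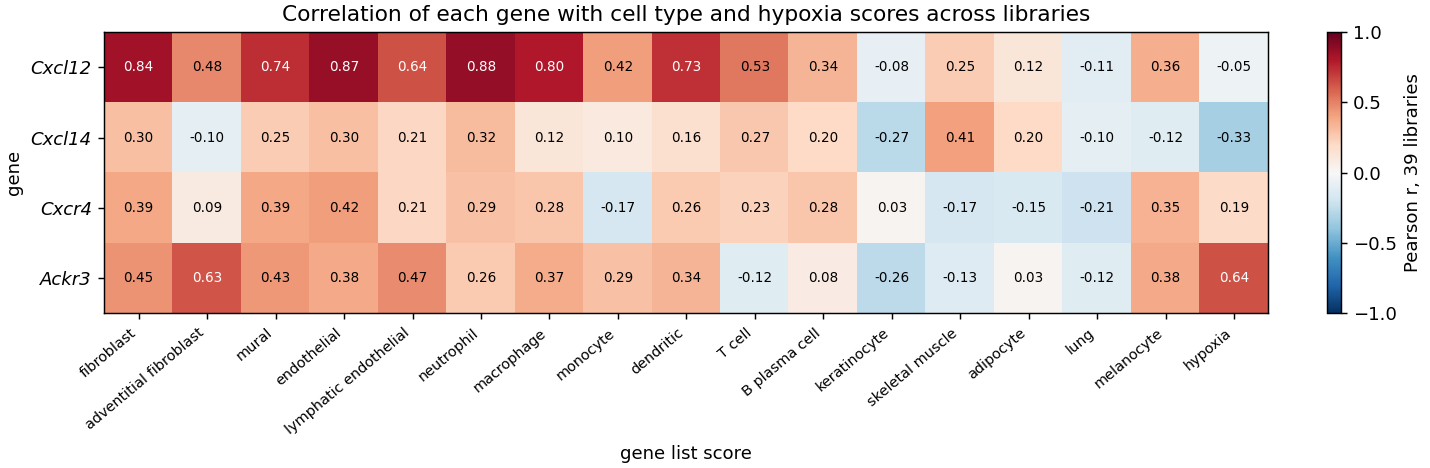
Pearson r over 39 libraries between each gene (rows) and the scores of 17 gene lists (columns), on a colour scale from -1 to 1. The Cxcl12 row holds the highest values, up to 0.88 with the neutrophil score, and Ackr3 stands out in the hypoxia column with 0.64.

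The 4 genes were weakly tied to one another. Cxcl12 had r of 0.43 with Ackr3, 0.38 with Cxcr4 and 0.26 with Cxcl14. Cxcr4 and Ackr3 shared 0.23, and Cxcl14 had -0.09 with Cxcr4 and -0.18 with Ackr3.

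Among 11812 genes with a mean of at least 1 log2 CPM, those most like Cxcl12 included Svep1, an extracellular matrix protein (r = 0.95), Epas1, the hypoxia-inducible factor subunit HIF-2α (0.94), Cyp7b1, an oxysterol hydroxylase (0.94), and Sfrp2, a secreted Wnt modulator (0.92). Ackr3 was most like Ptx3, a soluble pattern recognition protein (0.81), Il33, an alarmin cytokine (0.80), Gas7 (0.79), Slc7a2, an arginine transporter (0.78), and Hk2 (0.76). Cxcr4 went with Cbx7, a Polycomb protein (0.74), Pdzrn3 (0.74), Bmf, a pro-apoptotic BH3 protein (0.73), Fam3c (0.73) and Mef2d, a transcription factor (0.72). The genes nearest to Cxcl14 included Dio3, which inactivates thyroid hormone (0.70), Kng2, a kininogen (0.65), Igha, the IgA heavy chain (0.64), and Fbn2, a fibrillin (0.63), all at lower r.

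Other genes of the pathway gave no calls. Of 6 tested proteases known to cut CXCL12 or to act in its release, 3 were higher and 3 lower in combination than in vehicle tumours on day 5, with a median log2 fold change of 0.03, and the same counts held on day 2. Dpp4, the dipeptidyl peptidase that inactivates CXCL12, stood at 0.84 ± 0.43 on day 5 (adjusted p = 0.319), and Mmp9, a gelatinase, at -2.02 ± 0.67 on day 2 (adjusted p = 0.243). Of 4 other ligands and partners 3 were higher on either day, among them Cd74, the receptor of MIF and a partner of CXCR4, with 0.62 ± 0.33 on day 5 (adjusted p = 0.344) and 1.00 ± 0.33 on day 2 (adjusted p = 0.243).

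Of 20 genes of CXCR4 signalling and desensitisation, 14 were higher in combination than in vehicle tumours on day 5 (median 0.19) and 14 on day 2 (median 0.32), against medians of -0.01 and -0.02 over all genes. Dock2, which drives leukocyte migration through Rac, stood at 0.95 ± 0.30 on day 5 (adjusted p = 0.180), and Rgs1, a brake on chemokine receptor signalling, at 0.91 ± 0.27 on day 2 (adjusted p = 0.207). Grk6, a kinase that phosphorylates CXCR4, had an r of -0.74 with Cxcr4 across the 39 libraries and was picked out after its value was seen.

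Of 11 other CXC ligands tested, 7 were higher in combination than in vehicle tumours on day 5 (median 0.30) and 9 on day 2 (median 0.54), and none passed. Of 4 other homeostatic ligands, 3 were lower on day 5 (median -0.20) and 3 on day 2 (median -0.34). Cx3cl1, the membrane-bound ligand of endothelium, stood at -0.78 ± 0.38 on day 5 (adjusted p = 0.302). Ccl21a, a lymph node chemokine with near-identical copies in the mouse genome, was at 0 in all 39 libraries.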

How the data were processed

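RNA of 39 tumours was sequenced with a 3′ end kit (QuantSeq forward, 500 ng total RNA, per the labels' protocols). The authors deposited whole-number counts per Ensembl gene and log2 CPM values. Per the submitters' processing notes the tools were bcl2fastq, STAR, featureCounts and limma with mm10 and GRCm38; the sources used here give neither their versions nor the strand setting. The deposited log2 values equal log2(count + 0.5) plus a constant per library, and they entered 1 alternative.

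Genes were kept by filterByExpr of edgeR 4.0.16 in R 4.3.3 (minimum count 10, minimum total 15). Counts were scaled by TMM, and a robust quasi-likelihood model with 1 mean per group was fitted to all 39 libraries (31 residual degrees of freedom). P-values are 2-sided with Benjamini-Hochberg adjustment over 15070 genes in each comparison. SE is |log2 fold change| / √F. Log2 CPM used a prior count of 2, and a score is the mean log2 CPM of a list's tested genes. Every pair of replicates differed by more than counting noise. DESeq2 1.42.0, limma 3.58.1, other size factors, no filter, covariates, a replicate block and left-out libraries were tried. The pipeline was tested on simulated data. The treatment groups follow the labels.

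The 4 genes, the gene lists and the tests were chosen with earlier results of these data known. Genes named beside the 4 are the 5 with the highest Pearson r with each, up to 4 per list by smallest p in the comparison described, and set markers; other genes named for their r or level, or for counts of 0, were picked after their values were seen. Some genes that this rule names are not reported here. The alternatives for the interactions, and those without 3 libraries whose title series has the other day or without the 3 richest in B cell or keratinocyte genes, were added after seeing the data. Symbols came from GENCODE (37607 of 39179 identifiers matched) and promoters from RefSeq, matching 4 of 4 genes. Proteins were not used here. Intervals by counting error were not computed. Every level of the 4 genes comes from 79 or more counts, but some other genes named were at 0 in some libraries.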

Additional observations from a re-analysis of the deposited data

Results flagged for a closer look

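The 5 or 4 libraries of each group were examined for 1 value that stood far from the others, for 4 genes in 8 groups each. In 3 of 32 cases the gap to the nearest library took up more of the group's range than Dixon's 95% critical value, and chance gives about 1 in 20.

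For Cxcl12, combination day 2 replicate 3 had 23.75 CPM, against 117 to 148 CPM in the other 4 libraries of its group. The same library had a fibroblast score of 6.6, the lowest of its group, and the lowest Cxcl14 of all libraries, 17.9 CPM. For Ackr3, combination day 2 replicate 2 had 58.67 CPM, against 14.7 to 26.7 CPM in the others. It had the highest fibroblast (8.4) and hypoxia (7.06) scores of its group. For Ackr3, anti-PD-1 day 2 replicate 4 had 22.06 CPM, against 17.9 to 18.4 CPM in the other 3.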

How the results depend on the processing

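Alternatives covered all 4 genes between pairs of groups, but only Cxcl14 and Cxcr4 in the interactions and in the EPAT and anti-PD-1 effects between days. For the combination effect between days no alternative was run. No fold change of Cxcl12 or Cxcr4 passed under any alternative run. Ackr3 passed in 1 of 265 alternative values and Cxcl14 in 6 of 383, all given here. With DESeq2 these were Ackr3 for combination against vehicle on day 2 (1.02) and Cxcl14 for combination against EPAT on day 2 (-1.44), combination between days (1.43), vehicle between days (1.48) and the day 2 interaction (-2.33). Without anti-PD-1 day 2 replicate 2, Cxcl14 passed for combination against anti-PD-1 on day 2 and for that interaction.

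Values near 0 changed sign. Combination against EPAT on day 5 gave, under DESeq2 size factors, no filter, the muscle and keratinocyte covariates, DESeq2, only the libraries compared, and without the 3 libraries richest in B cell or keratinocyte genes (chosen after seeing the data), 0.0026, 0.0083, 0.08, 0.0033, 0.02 and 0.12 for Cxcl14 (-0.01 as reported) and 0.0036, 0.0018, 0.04, 0.0037, 0.01 and 0.04 for Ackr3 (-0.01). The fibroblast covariate gave -0.11 for Cxcr4 in combination against vehicle on day 5, -0.18 and -0.22 for Cxcl12 in EPAT and anti-PD-1 against vehicle on day 5, -0.42 for Cxcl12 in anti-PD-1 between days and -0.07 for Ackr3 in EPAT between days. Without those 3 libraries combination against vehicle on day 5 was -0.01 for Cxcr4 and 0.03 for Ackr3. Without the 3 title mismatches (also chosen after seeing the data) combination against EPAT on day 5 was 0.02 for Cxcl14 and 0.1 for Ackr3, combination against anti-PD-1 on day 5 was -0.07 for Cxcl12, and 0 genes were called against anti-PD-1. The fibroblast r of Cxcl14 and Cxcr4 was -0.06 and -0.03 on day 2; others moved to 0.49 for Cxcl12 on day 2, 0.51 for Cxcr4 on day 5 and, for Ackr3, 0.59 and 0.35 with and without lung transcripts and 0.69 on day 2. The cause was not tested.

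Numbers of genes called also moved. DESeq2 gave 83, 3 and 1 for combination, EPAT and anti-PD-1 against vehicle on day 5, 84, 1 and 2 on day 2, 24 and 18 for combination against EPAT and anti-PD-1 on day 5, 27 for combination against EPAT on day 2, and 34, 6, 12 and 10 between days for combination, EPAT, anti-PD-1 and vehicle. It called 4 genes in the day 2 interaction, and 4 and 2 in the EPAT and anti-PD-1 effects between days. In combination against vehicle on day 2 the fibroblast covariate gave 45, only the libraries compared 99 and limma 1. In combination against vehicle on day 5 no filter gave 2 and only the libraries compared, or the omission of the 3 libraries, 0. In combination against anti-PD-1 on day 5 no filter, the block, only the libraries compared and the omission gave 0. In combination between days DESeq2 size factors, no filter, the muscle and keratinocyte covariates and the omission gave 1 and only the libraries compared 0. Combination against EPAT on day 5 gave 2 with DESeq2 size factors and 1 with the fibroblast covariate. Vehicle between days gave 1 with that covariate, 1 with limma and 3 with only the libraries compared. EPAT against vehicle on day 5 and the EPAT effect between days gave 1 with the fibroblast covariate and with only the libraries compared, and the EPAT effect also 1 without the 3 libraries. EPAT between days gave 1 with the covariate and combination against EPAT on day 2 gave 1 with only the libraries compared.

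Leaving out each library gave ranges that crossed 0 for Cxcr4 (-0.1 to 0.41) and Ackr3 (-0.14 to 0.1) in combination against vehicle on day 5, Ackr3 in EPAT against vehicle on day 5 (-0.12 to 0.1), Cxcl12 in anti-PD-1 against vehicle on day 5 (-0.19 to 1.64), and Cxcl12 (-0.04 to 0.42) and Ackr3 (-0.07 to 0.23) in EPAT against vehicle on day 2. So did combination against anti-PD-1 on day 5 for Cxcl12 (-0.14 to 1.26) and Cxcl14 (-0.04 to 0.34), combination against EPAT on day 5 for Cxcl14 (-0.13 to 0.12) and Ackr3 (-0.13 to 0.12), and day 5 against day 2 for Cxcl14 in anti-PD-1 (-0.47 to 0.05) and EPAT (-0.13 to 0.08) and for Cxcr4 in combination (-0.18 to 0.03). Cxcl14 in combination against anti-PD-1 on day 2 ran from -1.77 to -1.25 and the day 2 interaction from -2.6 to -2.08. Genes called ran from 0 to 205 (combination against vehicle, day 5), 0 to 20 (the same, day 2), 0 to 6 (combination against anti-PD-1, day 5), 0 to 4 (combination against EPAT, day 5), 1 to 7 (combination between days), 0 to 7 (anti-PD-1 between days) and 0 to 1 (EPAT between days, combination against EPAT or anti-PD-1 on day 2, both interactions and the EPAT effect between days).

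Replicate numbers did not pair the libraries: deviations of libraries with the same number had a mean r of 0.00568 (lowest -0.583), and 6 of 39 libraries matched best with their own number. With the number as a block Cxcl14 gave -1.44 in combination against EPAT on day 2 (adjusted p = 0.249), and no call on the 4 genes changed.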
